A study of Rattus norvegicus with 12 samples.

Results

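Genes that carry cells through mitosis and separate the chromosomes were measured in 2 rat liver epithelial cell lines, with and without rapamycin, an inhibitor of the kinase mTOR. The list held 56 genes, chosen by function and with earlier results of these data known. Of them, 50 had a probe set naming that gene alone on the Affymetrix rat array, of 14217 genes measured in this way. Cdc25c, Ndc80, Kif4a, Tpx2 and Ncapg had no such probe set, and the probe set of Anln was shared with another gene symbol. The 4 groups of 3 plates, with 1 array per plate, were WB311 cells with 50 nM rapamycin, WB311 cells with vehicle (DMSO), WB-F344 cells with 50 nM rapamycin and WB-F344 cells with vehicle, each exposed for 24 h. WB-F344 is a diploid, non-tumorigenic line from the liver of an adult Fischer rat, with a doubling time of 42 h, and the study describes its growth as sensitive to rapamycin. WB311 arose spontaneously from WB-F344, is tumorigenic, doubles in 15.5 h and is described there as resistant. Each line stands for itself, so that a difference between them is a difference between 2 cultures of related cells and not between normal and transformed liver cells in general.

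Entry into mitosis is driven by the kinase Cdk1 bound to A-type and B-type cyclins, with help from the Aurora and Polo-like kinases. Kinesin motors and the kinetochores then attach the chromosomes to the spindle, the spindle checkpoint holds back the anaphase-promoting complex until every chromosome is attached, and the central spindle proteins complete cytokinesis. Most of these genes are transcribed late in the cell cycle, when the B-Myb and MuvB complex and FoxM1 act at a promoter element called the CHR (cell cycle genes homology region), often beside CCAAT boxes bound by the factor NF-Y.

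The promoters of the measured genes shared these letters more often than promoters at large. RefSeq windows of 300 bases, 250 before the annotated start and 50 after it (build GRCr8), were matched by gene ID for 44 of the 50 genes, and there was no window for Ccna2, Foxm1, Ube2c, Aurkb, Incenp and Racgap1. A CHR, searched as TTTGAA or TTCGAA on both strands, was found in 32 of the 44 windows (72.7%), against 19.5% of 27457 windows of all genes. A CCAAT box, searched as CCAAT on both strands, was found in 35 of the 44 (79.5%), against 37.7% of all windows. In the 23 windows of the anaphase-promoting complex and cohesin genes the shares were 30.4% for a CHR and 47.8% for a CCAAT box, both above those of all windows. Both motifs stood in 28 of the 44 windows (63.6%), against 7.83% of all windows and 4.35% of those 23. A CHR together with 2 or more CCAAT boxes stood in 20 of the 44 (45.5%), against 2.34% of all windows. Of the 41 CHR matches in the 44 windows, 2 overlapped a CCAAT match, in Cdca8 and Mki67. A match describes the letters only and does not show that a factor binds there. The windows of 5 genes are given as examples, with the CHR and CCAAT matches in capitals. Ccnb2 (cyclin B2; chr8:79981609-79981908, minus strand) and Cdc20 (the activator of the anaphase-promoting complex; chr5:137255750-137256049, minus strand) hold a CHR beside several CCAAT boxes, Plk1 (Polo-like kinase 1; chr1:186147408-186147707, plus strand) holds 1 match of each motif, Top2a (topoisomerase II alpha; chr10:84473044-84473343, minus strand) holds 6 matches in all, and Aurka (Aurora A kinase; chr3:181560720-181561019, minus strand) holds none.
Ccnb2: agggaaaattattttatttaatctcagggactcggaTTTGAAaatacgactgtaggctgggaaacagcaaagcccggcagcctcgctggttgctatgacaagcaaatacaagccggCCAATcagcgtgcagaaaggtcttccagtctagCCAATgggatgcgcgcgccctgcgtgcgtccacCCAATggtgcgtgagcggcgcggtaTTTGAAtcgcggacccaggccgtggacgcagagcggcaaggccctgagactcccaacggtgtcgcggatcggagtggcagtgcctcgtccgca
Cdc20: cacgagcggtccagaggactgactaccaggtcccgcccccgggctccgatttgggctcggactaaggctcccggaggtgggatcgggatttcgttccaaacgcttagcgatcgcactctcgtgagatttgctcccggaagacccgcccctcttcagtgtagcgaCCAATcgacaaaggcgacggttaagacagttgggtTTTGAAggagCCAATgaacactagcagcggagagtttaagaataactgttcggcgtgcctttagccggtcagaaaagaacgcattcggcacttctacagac
Plk1: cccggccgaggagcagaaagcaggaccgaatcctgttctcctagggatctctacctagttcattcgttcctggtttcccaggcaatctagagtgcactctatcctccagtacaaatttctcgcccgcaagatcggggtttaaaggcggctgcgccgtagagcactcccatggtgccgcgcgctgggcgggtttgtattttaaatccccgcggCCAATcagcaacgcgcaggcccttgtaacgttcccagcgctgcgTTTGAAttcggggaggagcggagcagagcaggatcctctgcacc
Top2a: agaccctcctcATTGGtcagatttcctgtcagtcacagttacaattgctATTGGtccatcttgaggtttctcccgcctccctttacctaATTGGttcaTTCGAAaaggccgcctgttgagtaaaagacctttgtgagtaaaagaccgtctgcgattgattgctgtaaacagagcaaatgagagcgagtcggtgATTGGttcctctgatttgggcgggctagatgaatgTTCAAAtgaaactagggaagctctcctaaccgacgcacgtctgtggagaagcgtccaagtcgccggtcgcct
Aurka: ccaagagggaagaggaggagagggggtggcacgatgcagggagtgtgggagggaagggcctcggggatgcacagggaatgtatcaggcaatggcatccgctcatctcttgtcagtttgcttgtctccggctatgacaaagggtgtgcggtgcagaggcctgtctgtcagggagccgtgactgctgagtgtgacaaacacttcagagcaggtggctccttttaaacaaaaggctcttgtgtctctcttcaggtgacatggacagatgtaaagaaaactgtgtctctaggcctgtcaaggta
Counted from the start site, the CCAAT boxes of Ccnb2 began at bases -134, -101 and -68, a CHR followed at -43, and another CHR lay further out at -214. In Cdc20 the CHR at -51 lay between CCAAT boxes at -86 and -41. In the Aurka window a pyrimidine-rich stretch ending in CAG stands directly before the annotated start, and an ATG follows soon after it. That start may lie inside the gene, so the window may not hold the Aurka promoter, which was not tested.

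**Figure D1:**
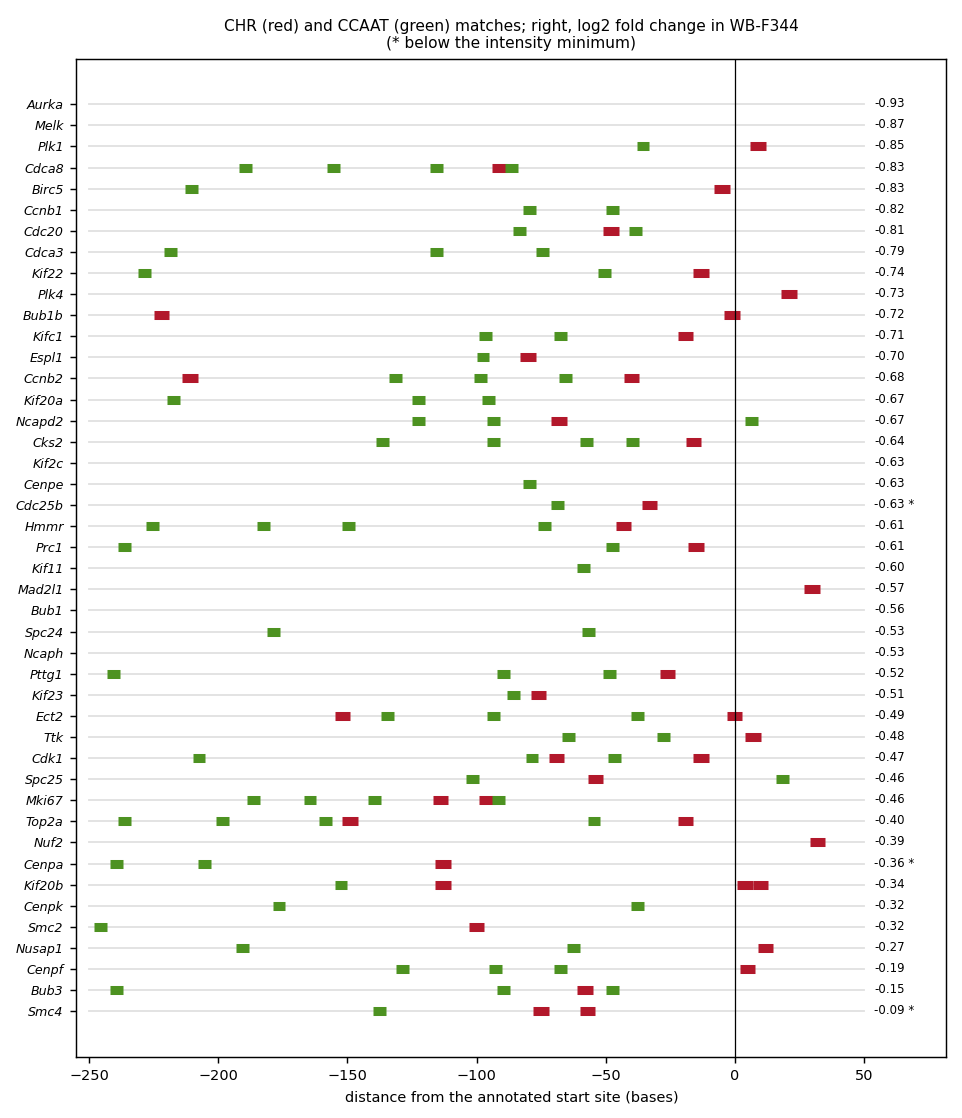
Each row is 1 of 44 mitotic genes, the x axis is the distance in bases from the annotated start site, red bars are CHR matches and green bars are CCAAT matches on either strand, and the number at the right is the log2 fold change with rapamycin in WB-F344. Rows run from the lowest fold change at the top (Aurka, -0.93, with no match in a window that may not hold its promoter) to the highest at the bottom (Smc4, -0.09, whose intensity was below the minimum for a test).

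Deposited values were linear intensities, and the median intensity of the 12 arrays lay between 59.5 and 62.9. Pairs of arrays correlated at 0.937 to 0.998 over all probe sets. Replicate plates of WB-F344 cells spread more widely than those of WB311 cells, with a median SD over the 50 genes of 0.12 (log2) with rapamycin and 0.13 with vehicle in WB-F344, and of 0.053 with rapamycin and 0.049 with vehicle in WB311. Both WB-F344 plates numbered 2 stood apart in the difference of the 3′ and 5′ control probe sets of Gapdh, at 0.17 (log2) with rapamycin and 0.34 with vehicle, where the other 10 arrays lay between -0.12 and -0.042. For actin the same difference was 0.62 and 1 on these plates. It was 0.21 to 0.25 on the other WB-F344 arrays and 0.38 to 0.49 on the WB311 arrays. Of 9 liver epithelial and biliary markers, 4 averaged below 100 in each group, Epcam and Prom1 in every group, Krt18 and Krt19 in WB-F344 cells, and Cd24 in WB311 cells among them. Krt8 was above 2000 on every array, Krt7 averaged 76.5 in WB311 cells and 5533 in WB-F344 cells with vehicle, and with rapamycin in WB-F344 cells Krt14 fell 3.07-fold, Cd24 fell 1.86-fold and Spp1 rose 3.63-fold. The summed level of these 9 was 6699 to 6870 in WB311 cells with rapamycin and 7024 to 7550 with vehicle, and 8953 to 9695 in WB-F344 cells with rapamycin and 10653 to 12242 with vehicle. Of 10 hepatocyte markers, albumin among them, 9 or 10 averaged below 100 in each group. Summed over 9 mesenchymal markers, the intensity was 13247 to 13878 in WB311 cells with rapamycin and 13628 to 13953 with vehicle, and 47908 to 54500.4 in WB-F344 cells with rapamycin and 56861 to 66826 with vehicle. Vim made up most of the WB311 sum, at 11836 with vehicle, and 4 of the 9 averaged below 100 in WB311 cells. With vehicle all 7 tested markers were called lower in WB311, where 28.8% of all genes were. The differences ran from 1.24-fold for Vim to 73-fold for Tagln. Of the 6 leukocyte markers, Cd14 alone was above 100, and the summed level of the list was 1158 to 1414 in WB-F344 cells with rapamycin, against 656 to 785 with vehicle. Of 4 endothelial markers, Tek alone averaged above 100, and only in WB311 cells. Tek averaged 1129 with rapamycin and 995 with vehicle in WB311 cells, against 33.2 and 37.1 in WB-F344 cells. The part of these differences in the results was not tested.

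The first comparison asked what rapamycin did to mitotic genes in the sensitive line. In WB-F344 cells 42 of the 47 tested mitotic genes fell with rapamycin, none rose, and the other 5 were not called. A gene was tested where its mean intensity reached 100 in at least 1 group compared, and it was called where the limma adjusted p was under 0.05 and the change was at least 1.2-fold. Of all 8223 genes tested, 17.4% were called lower and 7.81% higher. The log2 fold change was below 0 for all 47 genes, from -0.93 (Aurka) to -0.15 (Bub3), with a median of -0.61, beside a median of -0.07 over all genes tested. All 3 rapamycin plates were below all 3 vehicle plates for 43 of the 47 genes, against 26.5% of all genes. In bulk RNA, fewer cells in the phases that express these genes and less of each RNA per cell cannot be told apart. With the plate number as a replicate block the count of genes that fell was 45, where 20.3% of all genes were called lower. Leaving out any 1 array gave 40 to 44 genes, with only the calls of Nusap1 and Mki67 lost once or more. A fit to the WB-F344 arrays alone called 35 genes lower (10.7% of all genes) and lost Bub1, Mad2l1, Cenpe, Nusap1, Ncapd2, Mki67 and Kif23. After cyclic loess between arrays the share of lower genes among all called genes was 52.5% (1043 lower, 943 higher), against 69% as reported (1428 lower, 642 higher), and all 47 mitotic genes stayed below 0, with the calls of Cenpk and Nusap1 lost.

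**Figure D2:**
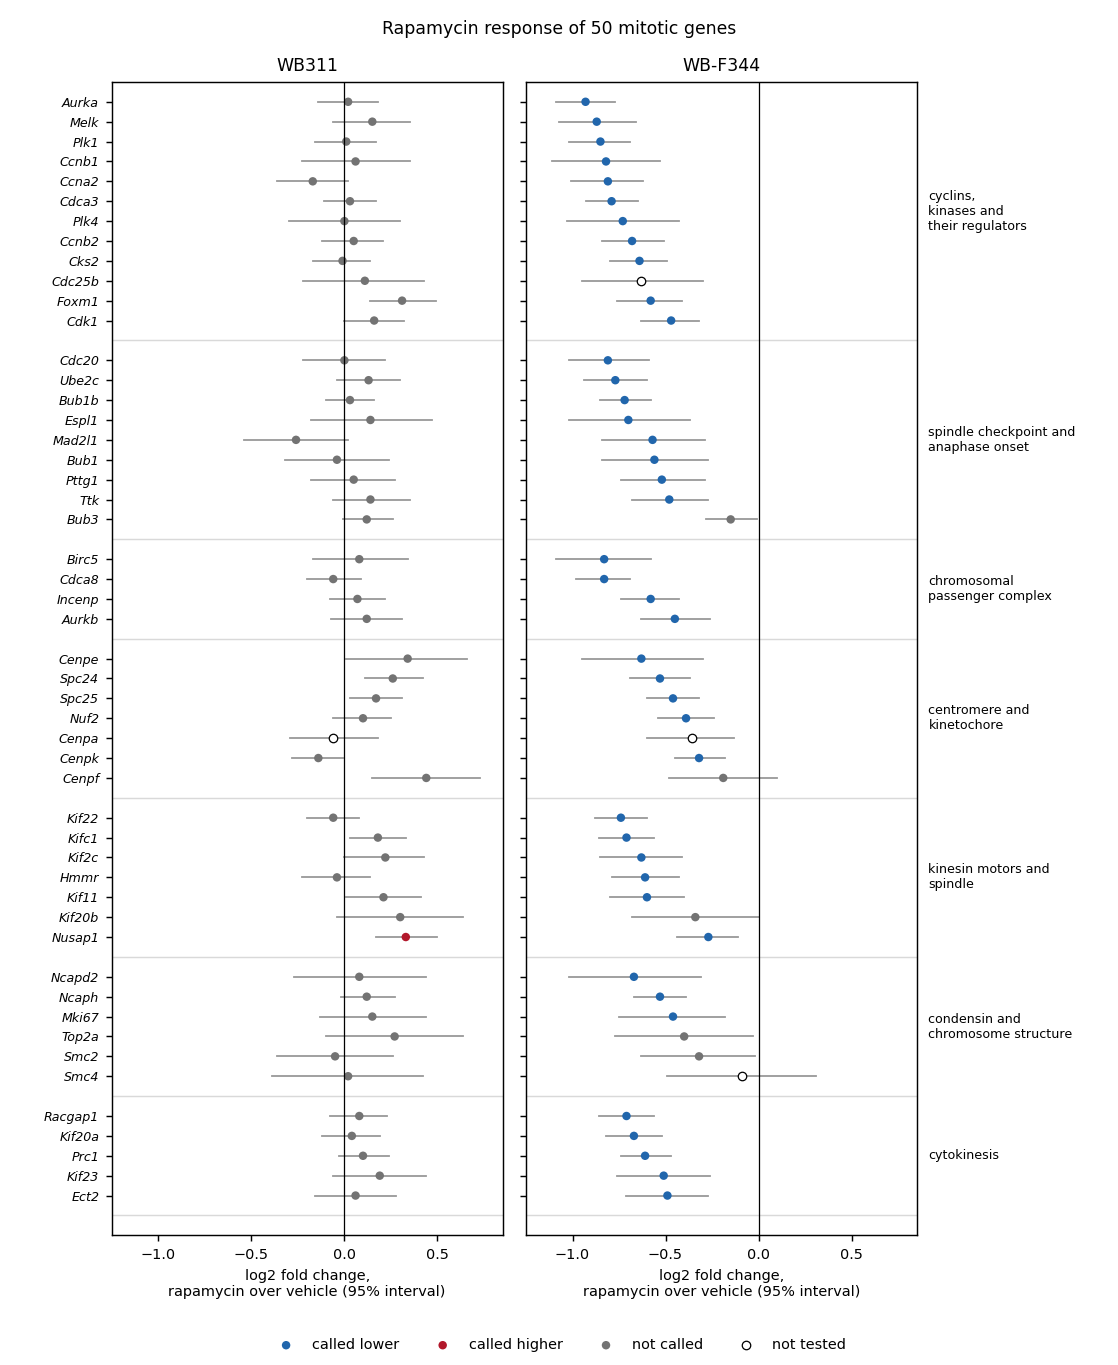
Points are log2 fold changes, rapamycin over vehicle, with 95% intervals from limma (x axis), for 50 mitotic genes grouped by function (y axis), in WB311 (left) and WB-F344 (right); colour shows the call. In WB-F344 42 genes are called lower and every point lies left of 0, and in WB311 the points lie around 0, with Nusap1 called higher.

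Cyclins, kinases and their regulators had the lowest median of the 7 classes. All 11 tested genes of this class were called lower in WB-F344, and the median log2 fold change was -0.79. Aurka, the kinase of centrosome maturation and spindle assembly, had 656, 661 and 608 units on the 3 plates with rapamycin, against 1275, 1118 and 1267 with vehicle. Every rapamycin plate of Aurka was far below every vehicle plate, a 1.9-fold fall (log2 -0.93, SE 0.073, adjusted p = 8.09e-06). Melk, a kinase of proliferating and embryonic cells, had 267, 288 and 224 with rapamycin, against 481, 489.8 and 445 with vehicle. The plates of Melk did not overlap either, with a 1.83-fold fall (log2 -0.87, SE 0.094, adjusted p = 5.56e-05). Neither Aurka nor Melk had a CHR or CCAAT match in its window, although the Aurka window may not hold its promoter. Plk1, which acts at centrosomes, kinetochores and the central spindle, averaged 684 ± 62.3 with rapamycin and 1230 ± 36.9 with vehicle (SD, n = 3 plates each). The mitotic cyclins moved alike, with log2 fold changes of -0.81 for Ccna2, -0.82 for Ccnb1 and -0.68 for Ccnb2. A second probe set of Ccnb1 was called lower as well. Cdk1, their catalytic partner, fell least in the class, by 0.47 on the log2 scale, and averaged 3404 ± 117 with rapamycin and 4736 ± 336 with vehicle. The others were Cdca3, an adaptor for mitotic entry (-0.79), Plk4, the kinase of centriole duplication (-0.73), Cks2, a Cdk-binding subunit (-0.64), and Foxm1, the transcription factor of late cell cycle genes (-0.58). Cdc25b, a phosphatase that activates Cdk1, was too dim to be tested in WB-F344, with means of 62.6 with rapamycin and 97.2 with vehicle.

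Spindle checkpoint and anaphase genes fell in 8 of 9 cases, with a median log2 fold change of -0.57 over the 9. Cdc20, the activator of the anaphase-promoting complex and the target of the checkpoint, had 822, 687 and 804 units with rapamycin, against 1526, 1189 and 1335 with vehicle. The 2 groups were well apart, although plate 2 was the lowest in each, and the fall was 1.75-fold (log2 -0.81, SE 0.099, adjusted p = 0.000147). Ube2c, the ubiquitin-conjugating enzyme of the same complex, had 2110.2, 2006 and 1977 with rapamycin, against 3682, 3091 and 3626 with vehicle. No rapamycin plate reached a vehicle plate for Ube2c (log2 -0.77, SE 0.078, adjusted p = 3.9e-05). Falls were also called for the checkpoint kinases Bub1 (-0.56) and Ttk (-0.48), the checkpoint proteins Bub1b (-0.72) and Mad2l1 (-0.57), securin (Pttg1, -0.52) and separase (Espl1, -0.70), the protease that cuts cohesin. Probe sets of a gene differed in call for 2 of these genes. Of 3 probe sets of Mad2l1, 1 was not called (log2 -0.64, adjusted p = 0.0844), and the dimmer of 2 probe sets of Ttk was not called (-0.38, adjusted p = 0.514).

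All 4 genes of the chromosomal passenger complex, which corrects faulty attachments and moves to the central spindle in anaphase, fell in WB-F344. Cdca8 (borealin) had 437, 434 and 428 units with rapamycin, against 803, 758 and 751 with vehicle. The rapamycin plates of Cdca8 were almost equal and clearly below the others (log2 -0.83, SE 0.067, adjusted p = 8.82e-06). Birc5 (survivin) had 334 and 293 on plates 1 and 2 with rapamycin, with a mean of 324 over the 3 plates, against 649, 507 and 577 with vehicle. Its groups did not overlap either, with plate 2 the lowest in each (log2 -0.83, SE 0.12, adjusted p = 0.000342). The scaffold Incenp fell by 0.58 and the kinase Aurkb by 0.45 on the log2 scale.

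Centromere and kinetochore genes showed a smaller median, -0.43, and 5 of 6 tested genes fell. Cenpe, a kinesin that carries chromosomes to the spindle equator, had 126, 194 and 145 units with rapamycin, against 241, 273 and 197 with vehicle. The highest rapamycin plate, number 2, came within a few units of the lowest vehicle plate (log2 -0.63, SE 0.15, adjusted p = 0.00851). Spc24, a subunit of the Ndc80 complex that binds microtubules, had 473, 526 and 454 with rapamycin, against 668, 714 and 714 with vehicle. Here the groups were far apart (log2 -0.53, SE 0.072, adjusted p = 0.000276). The other subunits of that complex, Spc25 (-0.46) and Nuf2 (-0.39), and the inner kinetochore gene Cenpk (-0.32) fell by less. Cenpa, the centromeric histone, was below the minimum intensity in every group, at 67.6 with rapamycin and 86.5 with vehicle in WB-F344.

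Kinesin motors and spindle proteins fell in 6 of 7 cases, with a median of -0.61. Kif22, a kinesin that pushes chromosome arms towards the equator, had 724, 743 and 693 units with rapamycin, against 1216, 1149 and 1238 with vehicle. Its plates were tightly grouped in each condition (log2 -0.74, SE 0.064, adjusted p = 1.44e-05). Kifc1, a minus-end motor that focuses spindle poles, had 445, 504 and 473 with rapamycin, against 741, 766 and 821 with vehicle. The groups of Kifc1 stood apart in the same way (log2 -0.71, SE 0.069, adjusted p = 2.64e-05). Kif2c, a kinesin that depolymerises microtubules (-0.63), the spindle protein Hmmr (-0.61) and Kif11, the motor that separates the poles (-0.60), followed, and each was called lower by both of its probe sets. Nusap1, a microtubule-bundling protein, showed the smallest called fall of all 42 genes (-0.27, adjusted p = 0.0206), and was not called after cyclic loess (-0.19, adjusted p = 0.125).

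Condensin and chromosome structure genes were called least often, with 3 of 5 tested genes lower and a median of -0.46. Ncapd2, a condensin subunit, had 285, 414 and 298 units with rapamycin, against 439, 675 and 475 with vehicle. Plate 2 was the highest in each condition, and its rapamycin plate came close to the lowest vehicle plate (log2 -0.67, SE 0.16, adjusted p = 0.00963). Ncaph, the subunit that bridges the condensin heads, had 642, 629 and 647 with rapamycin, against 953, 879.6 and 935 with vehicle. The plates of Ncaph agreed closely within each condition and did not overlap (log2 -0.53, SE 0.065, adjusted p = 0.000143). Mki67, the proliferation marker that coats mitotic chromosomes, fell by 0.46 on the log2 scale (adjusted p = 0.02), and this call was lost without rapamycin plate 1 or 3. Smc4, a condensin core subunit, was below the minimum in WB-F344, with means of 65.2 with rapamycin and 68.7 with vehicle.

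All 5 cytokinesis genes fell, with a median of -0.61. Racgap1, a central spindle protein, had 773, 806 and 745 units with rapamycin, against 1256, 1364 and 1185 with vehicle. These plates did not overlap (log2 -0.71, SE 0.07, adjusted p = 3.09e-05), and a second, dimmer probe set gave a log2 fold change of -1.21. Kif20a, the kinesin that brings the passenger complex to the central spindle, had 1569, 1407 and 1448 with rapamycin, against 2454, 2189.7 and 2387 with vehicle. The groups of Kif20a were likewise separate (log2 -0.67, SE 0.07, adjusted p = 4.58e-05). Prc1, which bundles central spindle microtubules (-0.61), Kif23, the partner of Racgap1 (-0.51), and Ect2, which acts in forming the cleavage furrow (-0.49), completed the class. The dimmer probe set of Kif23 was not called (log2 -0.26, adjusted p = 0.647).

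The 5 genes without a call in WB-F344 lay below 0 as well. Top2a, which untangles sister chromatids, had 983, 1507 and 1082 units with rapamycin, against 1351, 2056 and 1331 with vehicle (log2 -0.40, 95% interval -0.77 to -0.03, adjusted p = 0.106). Kif20b, a kinesin of late mitosis, had 338, 564 and 421 with rapamycin, against 565, 625 and 458 with vehicle (log2 -0.34, interval -0.68 to 0.00, adjusted p = 0.135). In both genes plate 2 was the highest of each condition, and the rapamycin plate numbered 2 overlapped the vehicle plates. Cenpf, a large protein of the outer kinetochore, had 441, 684 and 565 with rapamycin, against 643, 696 and 570 with vehicle (log2 -0.19, interval -0.48 to 0.10, adjusted p = 0.318). Smc2, the other condensin core subunit, had 199.5, 253 and 211 with rapamycin, against 288, 335 and 217 with vehicle (log2 -0.32, interval -0.63 to -0.02, adjusted p = 0.115). The same plate was again the highest in each condition, and the groups overlapped. Bub3, a checkpoint protein that also binds RNA processing factors, had 2604, 2553 and 2563 with rapamycin, against 2917, 2679 and 2957 with vehicle (log2 -0.15, interval -0.28 to -0.01, adjusted p = 0.108). Its groups did not overlap but the difference was small, and a second, dimmer probe set of Bub3 was called lower (log2 -0.46, adjusted p = 0.00151). With the plate number as a replicate block Top2a, Kif20b and Smc2 were called lower, and without both plates numbered 2 Top2a and Kif20b were. All 5 of these genes had a CHR and a CCAAT match in their promoter windows. The 25 tested genes with both motifs included 20 called lower, where 17.4% of all genes were. All 4 genes with a CHR alone, 7 with a CCAAT box alone, 6 without a window and 5 with neither motif were called lower. The genes with neither motif included Aurka, whose window may not hold its promoter. A link between motifs and change was not tested.

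**Figure D3:**
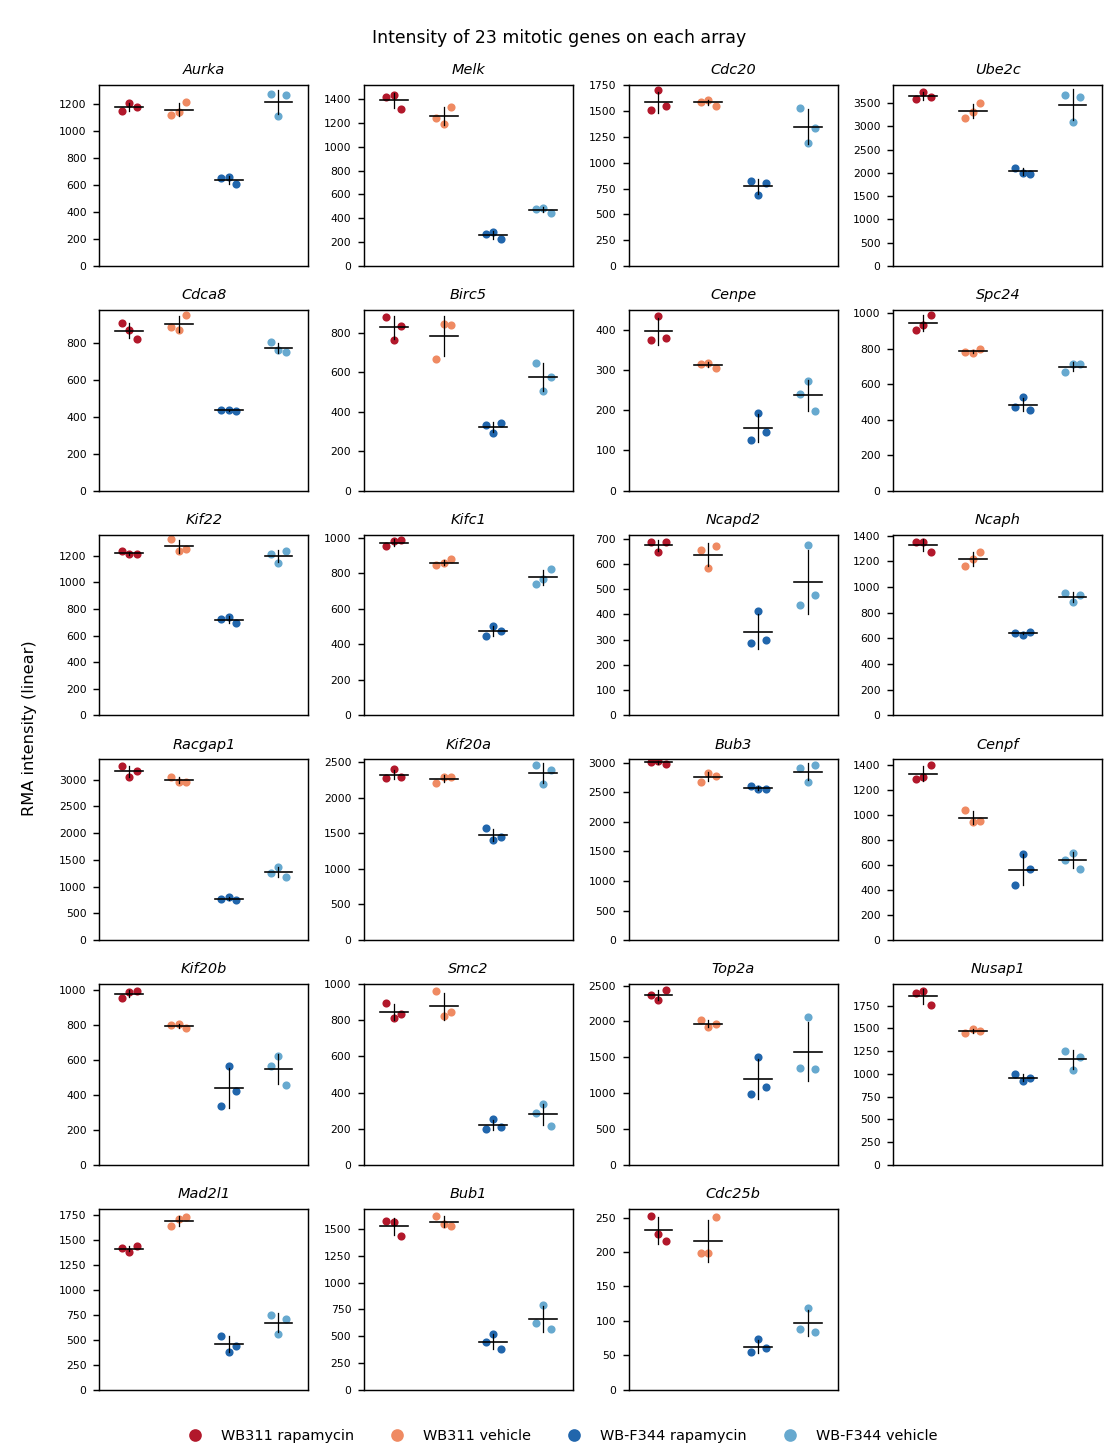
Linear RMA intensity on each array (y axis, from 0, its own scale in each panel) for 23 mitotic genes, with points for plates, horizontal bars for means and vertical bars for SD (n = 3 plates). In every panel the WB-F344 mean with rapamycin is the lowest of the 4, and for Cenpf, Kif20b, Smc2 and Top2a the WB-F344 plates of the 2 conditions overlap.

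Related genes outside the list were compared as companions, 129 measured genes in 7 groups, of which 61 of 120 tested were lower in WB-F344 and 1 was higher. Other centromere and kinetochore genes fell in 20 of 26 cases (median log2 fold change -0.53), among them Cenpt (-0.95), Cenpw (-0.86) and Zwilch (-0.83). Other spindle, centrosome and cytokinesis genes fell in 23 of 32 cases (median -0.52), led by Fam83d (-0.98), Tacc3 (-0.81) and Shcbp1 (-0.79). The anaphase-promoting complex, whose subunits are made throughout the cell cycle, had 2 of 14 subunits lower (Anapc16, -0.63, and Cdc23, -0.34) and a median of -0.20, beside -0.81 for its activator Cdc20. Cohesin and its regulators had a median of -0.08, with 2 of 12 lower, Sgo1, the protector of centromeric cohesion (-0.94), and Esco2, which acetylates cohesin in S phase (-0.40). These 14.3% and 16.7% stood near the 17.4% of all genes. Without the thresholds, 12 of 14 subunits of the complex and 8 of 12 cohesin genes lay below 0, beside 4993 of 8223 genes. All 3 rapamycin plates were below all 3 vehicle plates for 8 subunits of the complex and 1 cohesin gene, against 26.5% of all genes. Other mitotic kinases, phosphatases and inhibitors were lower in 9 of 21 cases, including the cyclin Ccnf (-0.50) and the Cdk1 inhibitor kinase Wee1 (-0.44). Of 3 other condensin subunits, Ncapg2 (-0.58) and Ncaph2 (-0.40) fell. The group named for the MuvB and B-Myb complex also held E2f4, E2f5, Tfdp1, Tfdp2, Rbl1, Rbl2 and Mybl1. In this wider group 3 of 12 genes fell (25%, against 17.4% of all genes). Mybl2, the gene of B-Myb itself (-0.77), and Lin9 (-0.44) were among them. Mybl1, the related A-Myb, rose by 0.98 on the log2 scale (adjusted p = 0.000954).

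**Figure D4:**
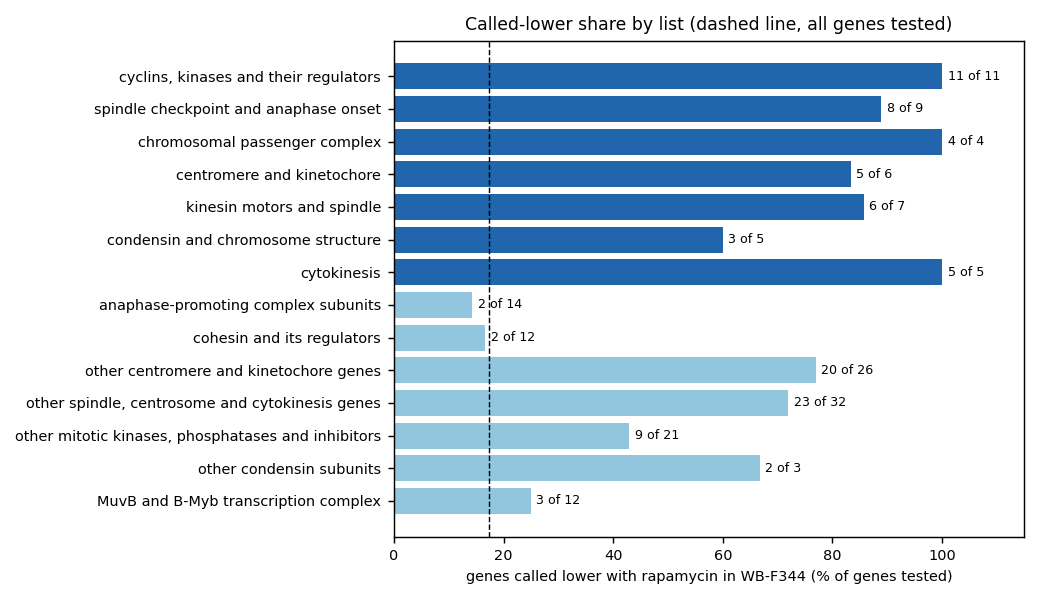
Bars give the percentage of tested genes called lower with rapamycin in WB-F344 (x axis) for 7 classes of listed mitotic genes (dark) and 7 companion groups (light), with counts beside each bar and a dashed line at the 17.4% of all genes. The anaphase-promoting complex (2 of 14) and cohesin (2 of 12) sit at the line, and 3 classes of listed genes reach 11 of 11, 4 of 4 and 5 of 5.

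The same exposure was then examined in the resistant line. In WB311 cells 1 of 49 tested mitotic genes was called higher with rapamycin and none lower, where 1.7% of all 8156 genes were called higher and 2.05% lower. The median log2 fold change was 0.08, beside 0.00 over all genes, and the values ran from -0.26 (Mad2l1) to 0.44 (Cenpf), with 11 genes below 0. All 3 rapamycin plates lay above all 3 vehicle plates for 23 genes (background 21.3%) and below them for 4 (background 20.2%). An unadjusted limma p under 0.05 was reached by 10 of the 49 genes, a share near the 19.1% of all genes. The called gene was Nusap1, with 1892, 1911 and 1759.6 units with rapamycin, against 1455, 1492 and 1469 with vehicle. Its groups did not overlap in WB311 (log2 0.33, SE 0.077, adjusted p = 0.0367), and its second probe set was called higher too (0.36, adjusted p = 0.00804). The call of the first probe set was lost when any 1 of the 6 WB311 arrays was left out, and also without WB-F344 vehicle plate 3 or WB-F344 rapamycin plate 1 or 3. The model shares 1 estimate of the spread over the 4 groups, and WB-F344 plates varied more. With the WB311 arrays alone 7 genes were called higher, adding Foxm1 (0.31), Cenpe (0.34), Cenpf (0.44), Spc24 (0.26), Kif20b (0.30) and Top2a (0.27), and none lower, where 4.86% of all genes were called higher. With the replicate block within each line 5 genes were called higher (4.44% of all genes), although same-numbered WB311 plates did not deviate together.

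Some genes that were not called in WB311 had narrow intervals around 0. Aurka had 1149, 1209 and 1183 units with rapamycin, against 1124, 1147 and 1216 with vehicle, which overlapped (log2 0.02, 95% interval -0.14 to 0.18). Cdc20 had 1509, 1700.1 and 1548 with rapamycin, against 1589.7, 1607 and 1554 with vehicle (log2 0.00, interval -0.22 to 0.22). The intervals of Aurka and Cdc20 lay wholly above the falls of the same genes in WB-F344. Cenpf had 1289, 1303 and 1395 with rapamycin, against 1037, 945 and 953 with vehicle, and Top2a had 2367, 2299.8 and 2443 with rapamycin, against 2014, 1916 and 1961 with vehicle. In these 2 genes every rapamycin plate was above every vehicle plate, with adjusted p-values of 0.0991 and 0.481. The medians of the 7 classes lay between 0.04 and 0.22 in WB311. Mad2l1 had 1418, 1385 and 1442 with rapamycin, against 1638, 1712 and 1734 with vehicle, and was not called (log2 -0.26, interval -0.54 to 0.02, adjusted p = 0.329). Of the 121 companion genes tested in WB311, 1 was lower, the Cdk-activating cyclin Ccnh (-0.29, adjusted p = 0.0399), and none was higher. This was 0.826% lower, where 2.05% of all 8156 genes were called lower and 1.7% higher. Ccnh is named because the count of companion genes was 1, after its value was seen.

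The difference of the rapamycin effect, WB311 minus WB-F344, was tested as an interaction in the same model. It was called above 0 for 38 of 49 mitotic genes and below 0 for none, where 7.98% of all 8660 genes were called above 0 and 3.6% below. All 49 differences were above 0, from 0.11 (Smc4) to 1.02 (Melk), with a median of 0.70, beside 0.06 over all genes. This comparison shares its arrays with the 2 before it and adds no independent samples. For Melk the log2 fold change was 0.15 in WB311 and -0.87 in WB-F344, a difference of 1.02 (SE 0.13, adjusted p = 0.000612). For Aurka the values were 0.02 and -0.93 in the same lines, a difference of 0.95 (SE 0.1, adjusted p = 0.000223). Cenpe had a value of 0.34 in WB311, which was not called, and a fall in WB-F344 (-0.63), and differed by 0.96 (adjusted p = 0.0125). Cyclins and kinases (12 of 12), passenger genes (4 of 4) and cytokinesis genes (5 of 5) were all called in the fit to all 12 arrays. Condensin and chromosome structure genes were called in 1 of 6 cases, Ncaph (0.65). Second probe sets of Bub3 and Mad2l1 were called, although those that stand for the genes were not. The other genes without a call were Bub1, Bub3, Mad2l1, Cenpf, Cenpk and Kif20b. Leaving out any 1 array gave 33 to 43 genes, and with the replicate block within each line 44 were called (14.3% of all genes), adding Bub1, Cenpf, Kif20b, Ncapd2, Top2a and Mki67. The calls of Cdc25b, Plk4, Pttg1, Espl1 and Ect2 were all lost when any 1 of the 3 WB311 rapamycin arrays was left out. They were also lost without WB311 vehicle plate 1 or 2, and without WB-F344 rapamycin plate 3. With no intensity filter Cdc25b, Plk4, Pttg1 and Ect2 were not called. Cdc25b was below the minimum intensity in WB-F344. Companion genes were called above 0 in 51 of 122 cases. After cyclic loess 45.3% of all called differences lay below 0, against 31.1% as reported.

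Without rapamycin, the mitotic genes were compared between the lines themselves. With vehicle, 27 of 49 genes were higher in WB311 than in WB-F344, 2 were lower and 20 were not called, where 28% of all 8522 genes were called higher and 28.8% lower. The median log2 difference was 0.35, beside 0.00 over all genes, and all 3 WB311 plates were above all 3 WB-F344 plates for 35 genes, against 34.2% of all genes. Smc2 differed most, with 962, 824 and 846 units in WB311 cells, against 288, 335 and 217 in WB-F344 cells. The plates of Smc2 were far apart, a 3.18-fold difference (log2 1.67, SE 0.14, adjusted p = 5.86e-07). Melk had 1244, 1186 and 1334 in WB311 cells, against 481, 489.8 and 445 in WB-F344 cells (log2 1.41, adjusted p = 5.69e-08). Racgap1 had 3059, 2960.3 and 2951 in WB311 cells, against 1256, 1364 and 1185 in WB-F344 cells (log2 1.24, adjusted p = 1.24e-08). In both genes the lines were separated by several times the spread between plates.

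Mad2l1 had 1638, 1712 and 1734 units in WB311 cells with vehicle, against 744, 559.7 and 708 in WB-F344 cells with vehicle (log2 1.35, adjusted p = 1.52e-06). Bub1 had 1627, 1551 and 1529 in WB311 cells, against 623, 792 and 566 in WB-F344 cells (log2 1.26, adjusted p = 3.35e-06). Both were higher on every WB311 plate. Cdc25b had 198, 199 and 251 in WB311 cells, against 88.4, 119 and 83.8 in WB-F344 cells, where only plate 2 exceeded 100 (log2 1.16, adjusted p = 2.53e-05). The 2 genes lower in WB311 were separase (Espl1), with 326, 301 and 343 in WB311 cells, against 520.4, 736 and 542 in WB-F344 cells, and Cdk1, with 3677, 3731 and 3708 in WB311 cells, against 4999, 4358 and 4851 in WB-F344 cells. Neither gene overlapped between the lines, with log2 differences of -0.88 and -0.35 and adjusted p-values of 0.000255 and 0.00106. Some genes with large falls in WB-F344 lay near 0 between the lines with vehicle, such as Aurka (-0.07, 95% interval -0.23 to 0.09), Ube2c (-0.05, -0.22 to 0.12) and Cdca3 (-0.06, -0.20 to 0.08). Probe sets of Ccnb1, Hmmr, Nusap1 and Top2a gave different calls for this comparison, and the dimmer probe set of Bub3 was called lower in WB311. Cohesin genes, of which 2 of 12 fell with rapamycin in WB-F344, were higher in WB311 in 10 of 12 cases (83.3%). Anaphase-promoting complex subunits were higher in 3 of 14 (21.4%), and 28% of all genes tested were called higher. Without any 1 array 24 to 29 genes were higher, with the calls of Foxm1, Cenpe and Kif2c lost at least once. The mesenchymal markers given above differed between the lines as well, and the doubling times were 15.5 h for WB311 and 42 h for WB-F344, whose part in these differences cannot be told apart from that of the line.

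Over all 50 measured genes, the mean log2 intensity was 10.26, 10.25 and 10.24 on the WB311 plates with rapamycin and 10.16, 10.13 and 10.18 on those with vehicle. It was 9.15, 9.24 and 9.12 on the WB-F344 plates with rapamycin and 9.76, 9.80 and 9.69 on those with vehicle. The lowest level was thus that of WB-F344 cells with rapamycin and the highest that of WB311 cells with rapamycin, and no 2 groups overlapped. The mean over all genes stayed between 7.24 and 7.30 on the 12 arrays. The order WB311 with rapamycin, WB311 with vehicle, WB-F344 with vehicle and WB-F344 with rapamycin, from high to low, held for the class means of all 7 classes, with overlapping WB311 plates in some of them.

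**Figure D5:**
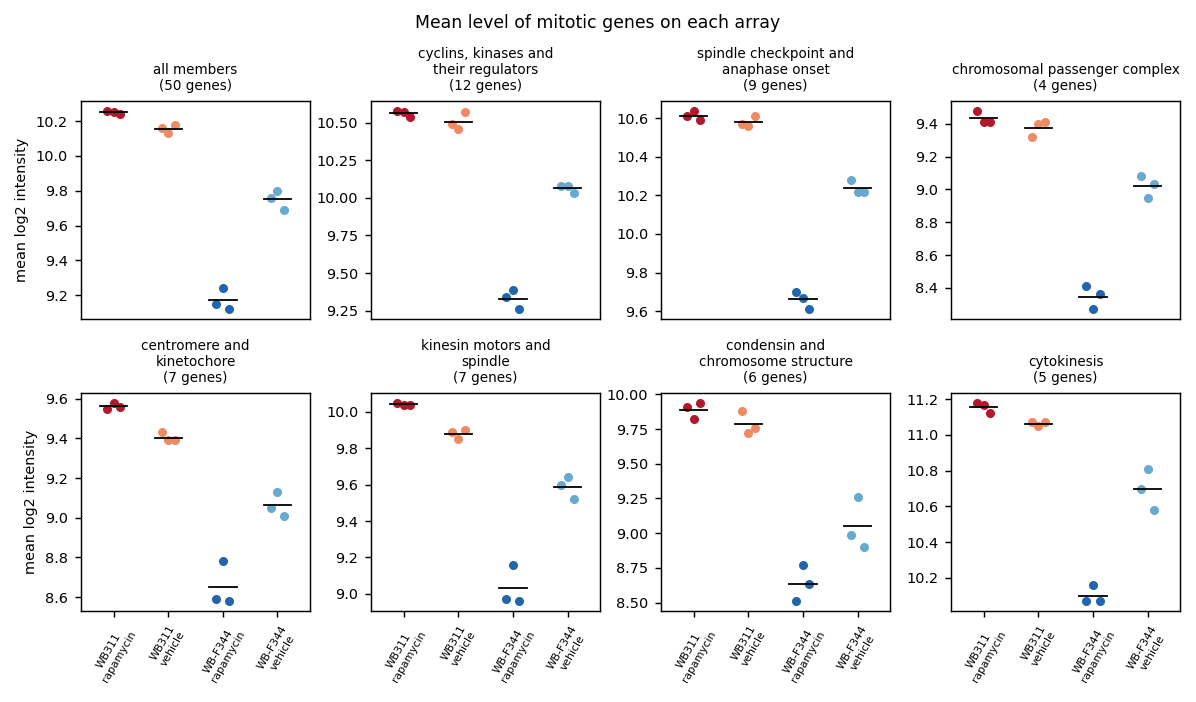
Mean log2 intensity on each array (y axis, own range in each panel) over all 50 mitotic genes and over each of 7 classes, with 1 point per plate and a bar for the group mean (n = 3 plates). In each panel the WB-F344 plates with rapamycin are the lowest of the 4 groups, between 9.12 and 9.24 over all 50 genes.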

How the data were processed

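The authors hybridised total RNA from triplicate plates of 4 groups to Affymetrix rat arrays and normalised the signals by Robust Multiarray Average (RMA; version not given in the sources used here). The deposited values are linear intensities, turned to log2 here. All 12 columns matched a sample, and 57 array control probe sets were left out. Nothing says that plates came from separate cultures, so p-values measure the spread between plates. The 50 genes and the lists were chosen with earlier results of these data known, so no list was tested. A gene was counted once, by its probe set (single gene symbol, array annotation) with the highest mean log2 intensity. All 4 groups were fitted with limma 3.58.1 in R 4.3.3, with no block, and p-values were adjusted by Benjamini-Hochberg over all probe sets whose mean intensity was at least 100 in 1 group compared. A gene was called at adjusted p under 0.05 and a 1.2-fold change, the thresholds of the study's methods, whose 2-sample test is an alternative. The procedure was run on simulated data with known changes. That simulation drew independent noise with the same spread in all groups. It held no plate effects and no wider spread in WB-F344, so it cannot show how these affect the calls.

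Values of every array are given for the 2 genes per class with the largest called change in WB-F344, genes tested there but not called, genes called in WB311, and the 6 with the largest called difference between lines (for Birc5, 2 of the 3 rapamycin plates and the mean); Espl1 and Cdk1, called lower in WB311, and 5 genes not called there were added after their values were seen; other genes are named as summaries, and at most 3 per companion group, by the smallest p in WB-F344. Plates carry numbers 1 to 3 in each group. Deviations of same-numbered plates correlated at 0.585, 0.808 and 0.423 in WB-F344, and at -0.0291, 0.0215 and -0.102 in WB311. In WB-F344 plates 1 and 3 also correlated at 0.417 and 0.489 across numbers, and plate 2 stood apart. The main fit did not use the plate numbers, and the replicate block within each line was fitted in both lines. Alternatives were no intensity filter, no fold threshold, only the groups compared, the methods' test with equal or unequal variances, cyclic loess, median centring, a replicate block over all groups or within each line, all probe sets, and leaving out each array or both WB-F344 plates numbered 2. The number of arrays limits the precision.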

Additional observations from a re-analysis of the deposited data

Results flagged for a closer look

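The rapamycin effect differed between the lines, by the interaction test in limma (adjusted p under 0.05 and at least 1.2-fold), for 38 of the 49 mitotic genes tested, and every one of these differences (WB311 minus WB-F344, log2) was above 0. Of all 8660 genes tested, 7.98% were called above 0 and 3.6% below. The interaction uses the same arrays as the comparisons within each line. In cyclins, kinases and regulators the difference was 1.02 for Melk, 0.95 for Aurka, 0.90 for Foxm1, 0.88 for Ccnb1, 0.86 for Plk1, 0.82 for Cdca3, 0.74 for Cdc25b, 0.73 for Ccnb2 and Plk4, 0.65 for Ccna2, and 0.63 for Cdk1 and Cks2. In checkpoint and anaphase genes it was 0.90 for Ube2c, 0.84 for Espl1, 0.81 for Cdc20, 0.74 for Bub1b, 0.62 for Ttk and 0.56 for Pttg1. In the passenger complex it was 0.92 for Birc5, 0.78 for Cdca8, 0.66 for Incenp and 0.57 for Aurkb. In kinetochore genes it was 0.96 for Cenpe, 0.79 for Spc24, 0.63 for Spc25 and 0.49 for Nuf2. In motors and spindle genes it was 0.89 for Kifc1, 0.85 for Kif2c, 0.81 for Kif11, 0.68 for Kif22, 0.61 for Nusap1 and 0.57 for Hmmr. In cytokinesis genes it was 0.79 for Racgap1, 0.71 for Prc1 and Kif20a, 0.70 for Kif23 and 0.55 for Ect2, and in condensin it was 0.65 for Ncaph. Nusap1 was the gene with a called change in each line, higher in WB311 (0.33) and lower in WB-F344 (-0.27), and both calls were lost when 1 of several arrays was left out. Among the 38 differences, those of Cdc25b, Plk4, Pttg1, Espl1 and Ect2 were likewise not called when 1 of several arrays was left out.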

How the results depend on the processing

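No value changed direction among called results, and the 42 lower genes in WB-F344, the 38 differences between the lines and the 27 higher genes in WB311 with vehicle each stayed within 1.5 times of these counts under every alternative run. In WB-F344 the replicate block within each line gave 45 lower genes, a fit within the 2 groups gave 35 and the methods' test 32. All genes called there were 2070, but 1309 within the 2 groups and 1089 with the methods' test at unequal variances. In WB311 the count of mitotic genes called higher was 1, and it was 0 with no intensity filter, 7 within the 2 groups, 7 with the methods' test at equal and 7 at unequal variances, 3 after cyclic loess, 0 with the replicate block over all 4 groups, 5 with the replicate block within each line, 6 without both WB-F344 plates numbered 2, 2 over all probe sets, and 0 to 3 without any 1 array. All genes called in WB311 were 306, but 681 within the 2 groups, 740 and 632 with the methods' test at equal and unequal variances, 628 with the replicate block within each line, 719 without both plates numbered 2 and 120 to 484 without any 1 array. All genes with a called difference between the lines were 1003, but 1765 with the replicate block within each line, 1629 without both plates numbered 2 and 685 to 1225 without any 1 array. Cyclic loess and median centring moved the median of all genes by less than 0.04.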
